A study of Mus musculus with 38 samples.

Results

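The germline genes described here are Dazl, Ddx4, Mael, Tdrd1, Asz1, Stk31, Sycp1, Sycp3, Slc25a31 and Tex101, 10 of the 78202 genes listed in the gene tables. They were chosen by symbol, as germline genes whose promoters are known to gain DNA methylation when naive embryonic stem cells become primed. In mouse, such genes are kept silent outside the germ line by repressors that recruit a variant Polycomb complex and the H3K9 methyltransferases to their CpG-rich promoters, and by DNA methylation laid down as the epiblast forms. Silent chromatin marked with H3K9me2 often lies at the nuclear periphery, where the lamins and the lamin B receptor (LBR) hold it, and the genes measured here encode proteins of germ cell RNA control, piRNA biogenesis, meiotic chromosome pairing and sperm function.

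Proteins of the nuclear periphery were mapped by CUT&RUN, where DNA close to the bound antibody is freed by an attached nuclease and sequenced. The targets were LAP2β (LAP2B in the labels), a protein of the inner nuclear membrane, and lamin B1 (LMNB1), and a secondary antibody alone (IGG) gave the background. LAP2β was profiled in 4 genotypes of mouse embryonic stem (mES) cells, namely wild type (WT), LBR knockout (LBR KO), a triple knockout of the A- and B-type lamins Lmna, Lmnb1 and Lmnb2 (TKO), and a quadruple knockout lacking those lamins and LBR (QKO). Each was taken as naive cells in medium with 2 kinase inhibitors and LIF and as epiblast-like cells (EpiLCs) made with FGF and activin A, with 3 libraries in each of 12 groups. LMNB1 and IGG were profiled in WT cells of both stages only, so the background in the mutants was not measured here. In EpiLCs the study did not take LAP2β to stand for lamina-associated domains, since its signal there lay both inside and outside them, so the EpiLC values and stage differences given here are LAP2β signal and not a measure of contact with the lamina. TKO and WT were separate littermate lines, the QKO line was the 1 surviving clone made from TKO cells, and LBR KO clones came from the WT line, so genotype and clonal origin cannot be told apart. Nothing in the labels says that the libraries of a group came from separate cultures, so the p-values measure the spread between libraries, which may be technical. This is a DNA assay, so neither the knockouts nor the cell state could be checked by expression.

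All 10 genes passed the filter on low values, together with 70381 genes in all. A gene's spike-in scaled value grew with the number of 1 kb bins it touches and was read here as a sum over them, and the values resolved into whole reads, with 12028659 to 45689196 reads per library over all genes and 40 to 1937 reads per library over a single germline gene. Dazl, Ddx4, Tdrd1 and Slc25a31 shared no bin with another annotated gene. Sycp3 lay inside Chpt1 on the opposite strand, Mael, Stk31 and Tex101 overlapped non-coding transcripts (Stk31 a pseudogene too), and Asz1 shared a bin with one, and reads there cannot be divided between the genes. Sycp1 held 3 pseudogenes listed at 0 in all 36 libraries, so parts of it carry no signal in these tables and its level per bin is not comparable with that of the other genes.

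The promoters (250 bases before to 50 after the start of the Ensembl canonical transcript, GRCm39) were rich in CG. They held 13 to 29 CG dinucleotides, with a median of 20.5 against 11 over the promoters of 21683 protein-coding genes, and 10 of 10 lay above that median. The letters of the E box bound by MAX and MGA (CACGTG, its own reverse complement) stood in 6 of the 10 promoters against 7.84% of all. The letters TCCCGC, on either strand, which E2F factors recognise, stood in 5 of the 10 against 22.8% of all. Mael, Sycp1, Sycp3 and Slc25a31 carried both, as did 2.36% of all promoters. These 4 are printed with the matches in capitals. Asz1, which had neither, is printed because its LAP2β signal fell the most in naive QKO relative to the median gene of all tested genes (GRCm39, each read 5′ to 3′ on the gene's strand).
Mael (chr1:166066282-166066581, - strand): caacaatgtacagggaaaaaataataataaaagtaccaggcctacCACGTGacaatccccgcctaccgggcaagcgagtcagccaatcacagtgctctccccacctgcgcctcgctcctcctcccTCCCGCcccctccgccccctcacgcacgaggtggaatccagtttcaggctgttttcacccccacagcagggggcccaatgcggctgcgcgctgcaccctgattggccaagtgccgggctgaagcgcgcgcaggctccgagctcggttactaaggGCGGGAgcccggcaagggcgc
Sycp1 (chr3:102843406-102843705, - strand): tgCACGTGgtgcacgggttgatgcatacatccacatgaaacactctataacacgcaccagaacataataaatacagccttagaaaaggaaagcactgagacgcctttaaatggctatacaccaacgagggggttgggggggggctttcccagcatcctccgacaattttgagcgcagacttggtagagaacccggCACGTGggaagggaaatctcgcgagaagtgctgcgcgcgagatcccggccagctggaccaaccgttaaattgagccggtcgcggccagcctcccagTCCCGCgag
Sycp3 (chr10:88295181-88295480, + strand): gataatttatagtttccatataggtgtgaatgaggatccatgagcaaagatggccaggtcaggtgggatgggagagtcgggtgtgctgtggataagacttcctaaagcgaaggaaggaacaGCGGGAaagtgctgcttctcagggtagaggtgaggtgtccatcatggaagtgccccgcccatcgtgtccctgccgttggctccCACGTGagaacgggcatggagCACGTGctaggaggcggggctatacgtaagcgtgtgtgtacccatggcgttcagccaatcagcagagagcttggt
Slc25a31 (chr3:40663035-40663334, + strand): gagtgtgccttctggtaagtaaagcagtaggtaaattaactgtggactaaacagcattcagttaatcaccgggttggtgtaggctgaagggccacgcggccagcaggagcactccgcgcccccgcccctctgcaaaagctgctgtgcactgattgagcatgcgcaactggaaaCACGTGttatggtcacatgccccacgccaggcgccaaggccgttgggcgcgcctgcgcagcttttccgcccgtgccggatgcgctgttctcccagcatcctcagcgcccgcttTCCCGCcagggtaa
Asz1 (chr6:18109007-18109306, - strand): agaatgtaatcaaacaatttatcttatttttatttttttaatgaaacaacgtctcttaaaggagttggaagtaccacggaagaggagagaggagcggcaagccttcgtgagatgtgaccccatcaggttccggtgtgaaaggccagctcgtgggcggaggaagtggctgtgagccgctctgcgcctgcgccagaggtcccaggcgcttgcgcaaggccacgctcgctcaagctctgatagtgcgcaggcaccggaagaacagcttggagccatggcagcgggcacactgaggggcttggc
Stk31 and Tdrd1 held only CACGTG, Ddx4 held only TCCCGC, and Dazl and Tex101 held neither. A match describes the letters in this window and shows no binding, and the LAP2β values run over whole genes and do not resolve the promoter. Both motifs hold a CG, and these promoters were rich in CG. The shares were not compared with those of promoters of like CG count.

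The signal was read on 2 scales. On the relative scale each library is divided by its median tested gene, so that a value is a multiple of the median gene's signal in that library. On the spike-in scale the deposited values are kept, so that a loss of signal over the whole genome is included. Changes are log2 differences from limma, with 0.1 of the median gene added to each value, and a gene was called at an adjusted p under 0.05 over all tested genes.

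In naive WT cells the germline genes differed widely in lamin B1 signal. Levels per 1 kb bin, with the median tested gene at 1, were 1.84 ± 0.383 for Sycp3, 1.73 ± 0.237 for Asz1, 1.37 ± 0.25 for Dazl and 1.27 ± 0.0844 for Mael (SD, n = 3). Slc25a31 at 0.957, Stk31 at 0.943 and Ddx4 at 0.67 followed. Tex101 at 0.393 and Tdrd1 at 0.357 were lowest among the genes with comparable levels, Sycp1 being set aside. LAP2β gave a similar order, from 1.38 ± 0.123 for Asz1 to 0.435 ± 0.107 for Tdrd1, with Sycp3 at 1.07 and Mael at 0.996 next to each other and within their SDs (0.064 and 0.163).

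Against the IGG background, the ratio of relative lamin B1 to relative IGG signal in naive WT cells was 2.20 for Sycp3, 2.04 for Asz1, 1.80 for Dazl, 1.67 for Sycp1, 1.47 for Slc25a31 and 1.45 for Mael. Stk31 stood at 1.09 and Ddx4 at 0.813. Tdrd1, at 0.476, and Tex101, at 0.435, gave less lamin B1 signal than IGG signal on this scale, at percentiles 12.4 and 8.82 of tested genes. The ratios for LAP2β ran from 1.60 for Asz1 to 0.571 for Tdrd1. On this relative scale the germline genes thus held members on both sides of a ratio of 1. That ratio marks equal standing to the median gene in both assays, and not the level of the background. Spike-in scaled naive means of Tdrd1 and Tex101 were 5.91 and 1.44 for lamin B1 and 3.87 and 1.03 for IGG. They were not compared, since the study scaled targets by arbitrary constants and names none for lamin B1 or IGG. Without Sycp1 the median lamin B1 level per bin of the germline genes was 0.957, with 4 of 9 above the median gene.

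Relative to the median gene, the germline genes called for LAP2β between WT stages were near the share of all genes. The split depended on the scaling. For LAP2β, 2 of 10 rose and 1 fell from naive cells to EpiLCs, where 15.2% of all tested genes rose and 17.2% fell. For lamin B1, 2 rose and 1 fell, where 6.14% rose and 7.46% fell. For IGG, 0 of 10 were called by limma or by edgeR on the recovered reads, 0 had an unadjusted p under 0.05, and 0.0753% of all tested genes rose and 0.426% fell. With each library divided by its mean gene in place of its median, the split was 5 rising and 0 falling for LAP2β, where 22.5% of all genes rose and 8.4% fell and the median of all genes moved from −0.06 to 0.09. The LAP2β split was 4 and 0 against the median gene of each chromosome, where 14.3% rose and 16.7% fell. For lamin B1 the split with the mean gene was 4 and 0, where 10.8% rose and 3.68% fell and that median moved from −0.05 to 0.08. Relative to the median gene, the libraries of the 2 stages did not overlap for 5 of 10 germline genes for LAP2β and 4 for lamin B1. The shares of all tested genes were 39.4% and 32.4%.

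Tdrd1, a tudor-domain scaffold of the piRNA machinery, rose with both antibodies. Its relative LAP2β values were 3.19, 2.46 and 4.03 in naive WT and 4.51, 5.83 and 6.40 in WT EpiLCs. The groups did not overlap, and the log2 change was 0.78 ± 0.15 (SE, limma adjusted p = 6.71e-05). Lamin B1 values went from 2.76, 2.74 and 2.58 to 4.72, 4.41 and 3.91, again without overlap (log2 change 0.67 ± 0.15, limma adjusted p = 0.00663, and 0.0654 without EpiLC replicate 1). Its relative IGG values were 4.56, 5.48 and 6.92 in naive cells and 5.98, 7.04 and 7.34 in EpiLCs. Relative LAP2β signal stayed below relative IGG signal at both stages (ratios 0.571 and 0.822). Spike-in scaled means were 9.79 and 19.5 for LAP2β and 3.87 and 10.2 for IGG. They were not compared, as the study names no scaling constant for IGG. With spike-in scaling the LAP2β rise was 0.95 ± 0.25 (limma adjusted p = 0.00491, and 0.113 without EpiLC replicate 3).

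Sycp3, a component of the axial elements of meiotic chromosomes, went the other way. Relative LAP2β values of 2.61, 2.84 and 2.52 in naive WT were followed by 2.00, 1.78 and 1.90 in EpiLCs, and lamin B1 values of 5.81, 3.63 and 4.49 by 3.34, 3.44 and 2.71. Neither pair of groups overlapped, and the log2 changes were −0.47 ± 0.18 (limma adjusted p = 0.044) and −0.52 ± 0.17 (limma adjusted p = 0.0414). Both calls were thin. The first was lost without any single WT library (limma adjusted p = 0.0519 to 0.133), and the second without EpiLC replicate 1 or 3 or naive replicate 1 or 3 (limma adjusted p = 0.0969 to 0.207). Both changes were not called with spike-in scaling (−0.31 and −0.23), nor was the LAP2β change by edgeR on the recovered reads (adjusted p = 0.0503). The relative IGG values of Sycp3 were 1.91, 2.00 and 2.41 in naive cells and 1.29, 1.26 and 2.42 in EpiLCs. Its ratio of relative LAP2β to relative IGG signal was 1.26 in naive cells and 1.15 in EpiLCs. For lamin B1 the ratios were 2.20 and 1.91.

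Tex101, a glycoprotein of the sperm surface, gave lamin B1 values of 0.638, 0.773 and 0.562 in naive WT and 1.26, 1.27 and 1.21 in EpiLCs. The groups did not overlap, at a log2 change of 0.84 ± 0.23 (limma adjusted p = 0.0168, and 0.067 to 0.0844 without naive replicate 3 or EpiLC replicate 1 or 3). The lamin B1 values rest on 54 to 85 reads per library in naive WT and 122 to 136 in EpiLCs. Relative lamin B1 signal of Tex101 stayed below its relative IGG signal at both stages (ratios 0.435 and 0.731). Its LAP2β change of 0.49 ± 0.22 was not called (limma adjusted p = 0.0727). Slc25a31, the ADP/ATP carrier of male germ cell mitochondria, rose for LAP2β by 0.49 ± 0.19 (limma adjusted p = 0.037), but its values of 2.13, 2.80 and 1.51 in naive WT overlapped those of 2.60, 3.73 and 2.71 in EpiLCs. That call was lost without EpiLC replicate 2 or naive replicate 1 or 3 (limma adjusted p = 0.061 to 0.294). The relative IGG values of Slc25a31 were 1.96, 2.03 and 1.92 in naive cells and 2.22, 2.48 and 2.95 in EpiLCs, without overlap. Its ratio of relative LAP2β to relative IGG signal was 1.09 in naive cells and 1.18 in EpiLCs. For lamin B1 the ratios were 1.47 and 1.33. With spike-in scaling 1 gene rose for LAP2β, where 10.4% of all genes rose and 1.85% fell, and 2 rose for lamin B1, where 7.98% rose and 0.246% fell. Those 2, Tdrd1 and Tex101, were lost without EpiLC replicate 1 or 3 or naive replicate 1 (limma adjusted p = 0.102 to 0.234). On that scale the IGG background itself stood higher in EpiLCs, by a median log2 change of 0.90 over all genes and 1.01 over the germline genes, of which 0 were called by limma or edgeR and 5 had an unadjusted p under 0.05. The share of all genes called for IGG was 0.0% in each direction.

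**Figure D1:**
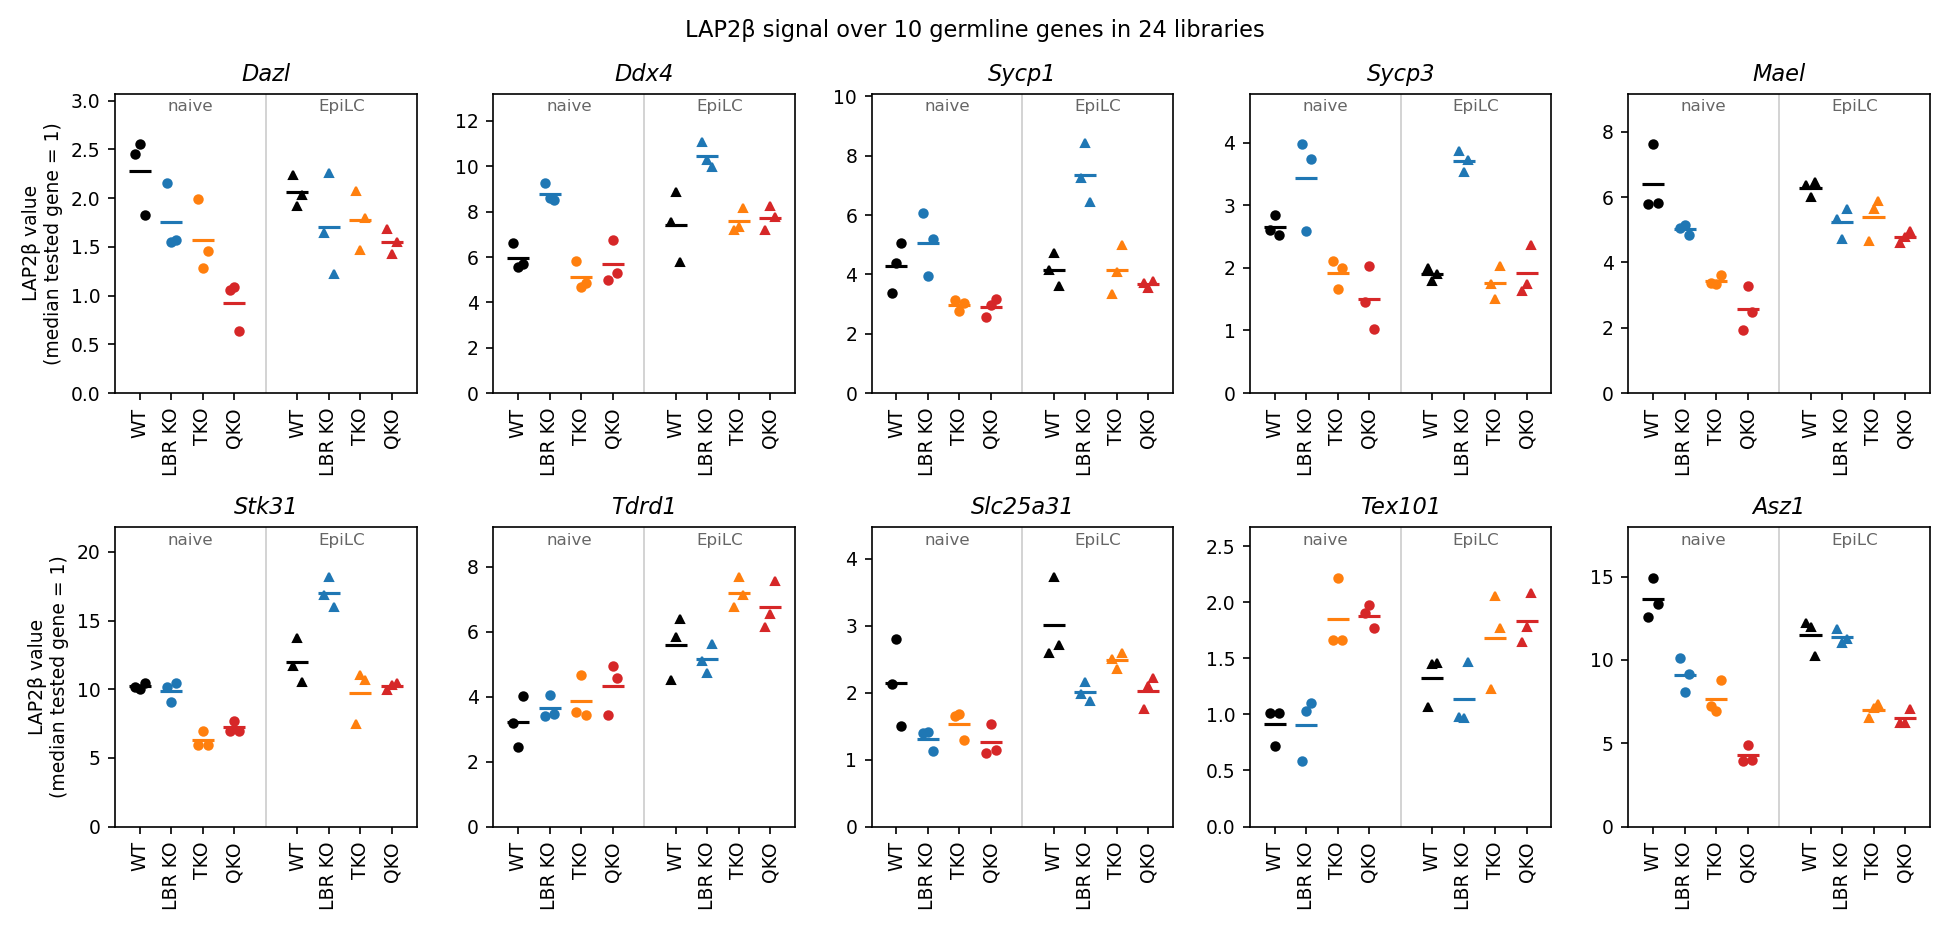
Relative LAP2β value (y axis, median tested gene of each library = 1) of each germline gene in 24 libraries, with naive cells (circles) and EpiLCs (triangles) of 4 genotypes on the x axis, 1 point per library and a bar at each group's mean of 3. Asz1 drops from 13.6 in naive WT to 4.26 in naive QKO, while Tex101 goes from 0.914 to 1.88.

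Relative to the median gene, the LAP2β signal of most germline genes differed between naive QKO and WT, as did that of most tested genes. On the relative scale 7 of 10 fell and 2 rose in QKO, where 44.2% of all tested genes fell and 31.7% rose. Their median log2 change was −0.62 against −0.28 over all tested genes. With libraries divided by their mean gene the split was 4 falling and 2 rising, as Sycp1, Stk31 and Slc25a31 were no longer called, where 35.8% of all genes fell and 38.1% rose, and the median of all genes moved to 0.0019. Measured against the median gene of each chromosome it was 4 falling and 1 rising, where 42.1% fell and 31.7% rose, at a median of −0.32 against −0.22 over all genes. With spike-in scaling 9 of 10 fell and 0 rose, where 65.4% of all genes fell and 10.1% rose, with a median of −1.71 against −1.19 over all genes.

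In TKO, 6 of 10 fell and 1 rose on the relative scale, where 28.1% of all tested genes fell and 21.7% rose. The split was 3 falling and 2 rising with the mean gene as the unit, as Dazl, Sycp1 and Sycp3 were no longer called, where 16.0% of all genes fell and 33.3% rose. With the spike-in 8 fell and 0 rose, where 47.6% fell and 2.38% rose, and Slc25a31 was lost from these without WT replicate 2 (limma adjusted p = 0.0741). In LBR KO, 3 fell and 1 rose, where 28.3% fell and 28.5% rose (2 falling and 3 rising with the mean gene, where 24.6% fell and 32.2% rose), and on the spike-in scale 1 rose and 0 fell, where 28.3% rose and 18.0% fell. QKO and TKO differ by the loss of LBR and by the single surviving clone that QKO is. QKO against TKO gave 3 falls and 0 rises, where 29.6% of all genes fell and 24.3% rose. Against the median gene of each chromosome it gave 2 falls, Dazl and Asz1, and 2 rises, where 28% fell and 23.7% rose. Those rises were Ddx4 at 0.31 (limma adjusted p = 0.0351) and Stk31 at 0.43 (limma adjusted p = 0.00148), and Mael was no longer called (−0.31, limma adjusted p = 0.0521). The mutant comparisons share the WT libraries, so their values are given side by side and not set against each other.

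**Figure D2:**
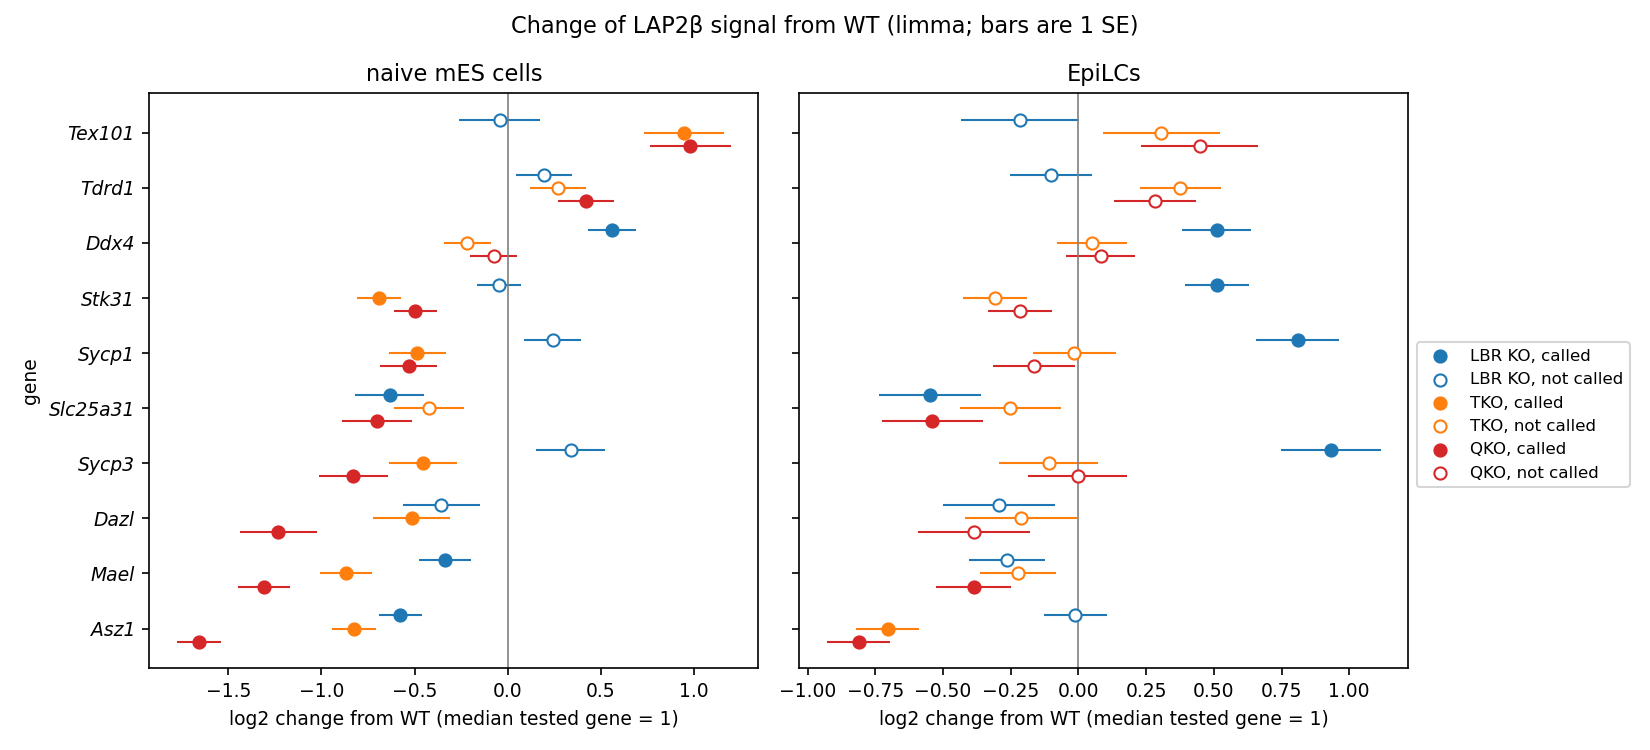
Log2 change of relative LAP2β signal from WT (x axis, ± 1 SE from limma) for each germline gene (y axis, ordered by the naive QKO change), in naive cells (left) and EpiLCs (right); filled points were called at an adjusted p under 0.05. Asz1, Mael and Dazl are furthest to the left in naive QKO, and Sycp1, Sycp3, Ddx4 and Stk31 lie to the right in LBR KO EpiLCs.

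Of the genes of germ cell RNA control, Dazl fell in naive TKO and QKO and Ddx4 rose in naive LBR KO on the relative scale. Dazl, an RNA-binding regulator of translation (chr17:50586366-50600664, minus strand), had relative LAP2β values of 2.46, 2.55 and 1.83 in naive WT, 2.15, 1.55 and 1.57 in LBR KO, 1.99, 1.28 and 1.45 in TKO, and 1.06, 1.09 and 0.633 in QKO. The QKO libraries lay below every other naive library. The log2 change was −1.23 ± 0.21 in QKO (limma adjusted p = 5.62e-07), −0.52 ± 0.21 in TKO (limma adjusted p = 0.0338) and −0.36 ± 0.21 in LBR KO (limma adjusted p = 0.134). The TKO call was lost without WT replicate 1 or 2 or TKO replicate 2 or 3 (limma adjusted p = 0.0908 to 0.159). QKO stood below TKO by 0.72 on the log2 scale (limma adjusted p = 0.00292, and 0.062 without QKO replicate 3). On chromosome 17, where Dazl lies, the median of the gene changes was 0.21 in naive QKO. The 14 neighbouring genes of Dazl within 500 kb all went down, at a median of −0.91. Against the median gene of that chromosome in each library the change of Dazl was −1.75 (limma adjusted p = 7.93e-10).

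Ddx4, the mouse Vasa RNA helicase (chr13:112734867-112789009, minus strand), had naive values of 6.62, 5.55 and 5.68 in WT, 9.24, 8.60 and 8.53 in LBR KO, 5.84, 4.68 and 4.83 in TKO, and 5.00, 6.73 and 5.29 in QKO. Only the LBR KO libraries stood clear of WT. The change was 0.56 ± 0.13 in LBR KO (limma adjusted p = 0.000211), −0.22 ± 0.13 in TKO (limma adjusted p = 0.153) and −0.08 ± 0.13 in QKO (limma adjusted p = 0.596). The rise was called on the spike-in scale too, at 0.75 ± 0.24 (limma adjusted p = 0.00641), while on that scale Ddx4 fell by 0.83 in TKO and by 1.22 in QKO. Of its 23 neighbours, 21 went up in LBR KO, at a median of 0.76.

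Relative to the median gene of all tested genes, the piRNA pathway genes held both the deepest falls and a rise in naive QKO. Asz1, an ankyrin-repeat protein of the mitochondria-associated piRNA granules (chr6:18050848-18109060, minus strand), had naive values of 12.6, 14.9 and 13.4 in WT, 10.1, 8.09 and 9.15 in LBR KO, 7.26, 6.94 and 8.80 in TKO, and 3.91, 4.92 and 3.97 in QKO. WT lay above all mutants and QKO below all others, while LBR KO and TKO overlapped. The log2 changes were −0.58 ± 0.12 in LBR KO (limma adjusted p = 3.97e-05), −0.83 ± 0.12 in TKO (limma adjusted p = 6.15e-08) and −1.66 ± 0.12 in QKO (limma adjusted p = 1.79e-18). QKO was below TKO by 0.83 on the log2 scale (limma adjusted p = 3.07e-08). The median of the gene changes on chromosome 6 was −0.69 in QKO, and the 8 neighbours of Asz1 went down at a median of −1.44. Against the median gene of that chromosome in each library the QKO change of Asz1 was −1.16 (limma adjusted p = 3.44e-13). By the study's karyotyping a part of the WT cells had an extra chromosome 6, and whether this shifted the values was not tested. With spike-in scaling the LBR KO change was −0.38 ± 0.24 and not called (limma adjusted p = 0.177).

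Mael, a protein of germ cell granules needed for transposon silencing (chr1:166028770-166066331, minus strand), had 5.79, 7.63 and 5.82 in naive WT, 5.06, 5.14 and 4.84 in LBR KO, 3.37, 3.34 and 3.61 in TKO, and 1.93, 3.28 and 2.48 in QKO. The 4 genotypes did not overlap and fell in that order. The log2 changes were −0.34 ± 0.14 (limma adjusted p = 0.0359), −0.87 ± 0.14 (limma adjusted p = 9.47e-07) and −1.31 ± 0.14 (limma adjusted p = 4.11e-12). The LBR KO call was lost without any LBR KO library or WT replicate 2 (limma adjusted p = 0.0511 to 0.251), and was not made on the spike-in scale (−0.15 ± 0.25). QKO was below TKO by 0.44 on the log2 scale (limma adjusted p = 0.00639, and 0.136 without QKO replicate 1).

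Stk31, a tudor-domain kinase of the germ line (chr6:49372473-49446440, plus strand), fell from 10.1, 10.1 and 10.4 in naive WT to 5.97, 6.98 and 5.94 in TKO and 6.99, 7.72 and 6.96 in QKO, with no overlap with WT. The changes were −0.69 ± 0.12 (limma adjusted p = 2.62e-06) and −0.50 ± 0.12 (limma adjusted p = 0.000186). Measured against the median gene of chromosome 6, the QKO change was −0.0019 (limma adjusted p = 0.989). In LBR KO its values of 10.2, 9.08 and 10.4 overlapped WT (−0.05 ± 0.12), while 16 of its 17 neighbours went up. Against the median gene of chromosome 6 this LBR KO change was a fall of −0.33 (limma adjusted p = 0.0147).

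Tdrd1 (chr19:56814641-56858444, plus strand) rose in QKO, with naive values of 3.19, 2.46 and 4.03 in WT, 3.42, 4.06 and 3.46 in LBR KO, 3.53, 4.66 and 3.43 in TKO and 3.45, 4.93 and 4.57 in QKO. The libraries overlapped, and the change of 0.42 ± 0.15 (limma adjusted p = 0.0107) was lost without WT replicate 2 or QKO replicate 2 (limma adjusted p = 0.153 and 0.078). Against the median gene of chromosome 19 it turned to −0.27 and was not called (limma adjusted p = 0.094). With spike-in scaling Tdrd1 fell by 0.72 in QKO (limma adjusted p = 0.00654, and 0.063 without WT replicate 3).

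Sycp3 and Sycp1, of the synaptonemal complex, fell in naive TKO and QKO cells on the relative scale, and their changes in LBR KO were not called. Sycp3 (chr10:88295431-88309099, plus strand) had naive values of 2.61, 2.84 and 2.52 in WT, 3.98, 2.59 and 3.74 in LBR KO, 2.10, 1.66 and 2.00 in TKO, and 1.46, 2.04 and 1.02 in QKO. WT lay above all TKO and QKO libraries. The changes were −0.45 ± 0.18 in TKO (limma adjusted p = 0.0357, and 0.0503 to 0.145 without WT replicate 1 or 2 or TKO replicate 2 or 3), −0.83 ± 0.18 in QKO (limma adjusted p = 7.2e-05) and 0.34 ± 0.18 in LBR KO (limma adjusted p = 0.111). By edgeR on the recovered reads the TKO change missed the threshold (adjusted p = 0.0509).

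Sycp1, the transverse filament protein that zips paired chromosomes together (chr3:102725709-102843455, minus strand), had 3.37, 4.39 and 5.05 in naive WT, 6.07, 3.94 and 5.21 in LBR KO, 3.13, 2.78 and 3.04 in TKO, and 2.58, 2.96 and 3.16 in QKO. The WT libraries lay above those of TKO and QKO. The changes were −0.49 ± 0.15 in TKO (limma adjusted p = 0.00714, and 0.0704 without WT replicate 3) and −0.53 ± 0.15 in QKO (limma adjusted p = 0.00175). Against the median gene of chromosome 3 the QKO change was −0.20 and was not called (limma adjusted p = 0.224). The LBR KO change of 0.24 ± 0.15 was not called (limma adjusted p = 0.176).

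Tex101 (chr7:24367432-24376100, minus strand) had the largest rise of the 10 genes in naive TKO and QKO. Its relative LAP2β signal was 1.01, 0.714 and 1.02 in naive WT, 0.580, 1.03 and 1.10 in LBR KO, 1.66, 2.22 and 1.67 in TKO, and 1.90, 1.97 and 1.77 in QKO. TKO and QKO lay above all WT and LBR KO libraries and overlapped each other. The changes were 0.95 ± 0.22 in TKO (limma adjusted p = 0.000284) and 0.98 ± 0.22 in QKO (limma adjusted p = 7.1e-05), and 40 of its 46 neighbours also went up in QKO. With spike-in scaling Tex101 was the only germline gene not called in QKO (−0.11 ± 0.30, limma adjusted p = 0.755), with 2.67, 2.61 and 3.01 in WT and 2.76, 2.37 and 2.52 in QKO. These values rest on 40 to 270 reads per library over Tex101.

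Slc25a31 (chr3:40663285-40680527, plus strand) had naive values of 2.13, 2.80 and 1.51 in WT, 1.40, 1.41 and 1.13 in LBR KO, 1.65, 1.68 and 1.29 in TKO, and 1.09, 1.53 and 1.14 in QKO. LBR KO lay below WT, and QKO overlapped WT by 1 library. The changes were −0.63 ± 0.19 in LBR KO (limma adjusted p = 0.00345, and 0.067 without WT replicate 2), −0.42 ± 0.19 in TKO (limma adjusted p = 0.0543) and −0.70 ± 0.19 in QKO (limma adjusted p = 0.000757). Its 19 neighbours on chromosome 3 all went down in QKO, at a median of −0.88, and against the median gene of that chromosome the QKO change was −0.37 and not called (limma adjusted p = 0.063).

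On the relative scale, germline genes with more lamin B1 over IGG in naive WT cells had lower LAP2β changes in the mutants lacking lamins. Tex101 and Tdrd1, with the lowest ratios, were at 0.98 and 0.42 in QKO (Tdrd1 with the reversal and the dependence on single libraries given above), Ddx4 was at −0.08, and Asz1, Sycp3 and Dazl, with the highest ratios, were among the genes that fell by more than 0.8. Over the 10 genes, the log2 ratio and the naive QKO change had a Pearson r of −0.91 and a Spearman rho of −0.82. The values for TKO were −0.85 and −0.56, and those for LBR KO −0.34 and −0.22. These describe 10 genes measured in the same libraries, and the values of the mutants were not tested against each other. With the lamin B1 level per bin in place of the ratio, r was −0.92 over the 9 genes other than Sycp1, −0.78 with it, and −0.61 over 70311 tested genes. With the LAP2β level per bin in naive WT these values were −0.90, −0.57 and −0.57. There the same naive WT libraries enter both the level and the change, which by itself favours a negative r. For the lamin B1 level the relation was thus not particular to the germline genes. The ratio itself was not set against the change over all genes. Leaving out Sycp1 was chosen after seeing the data.

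**Figure D3:**
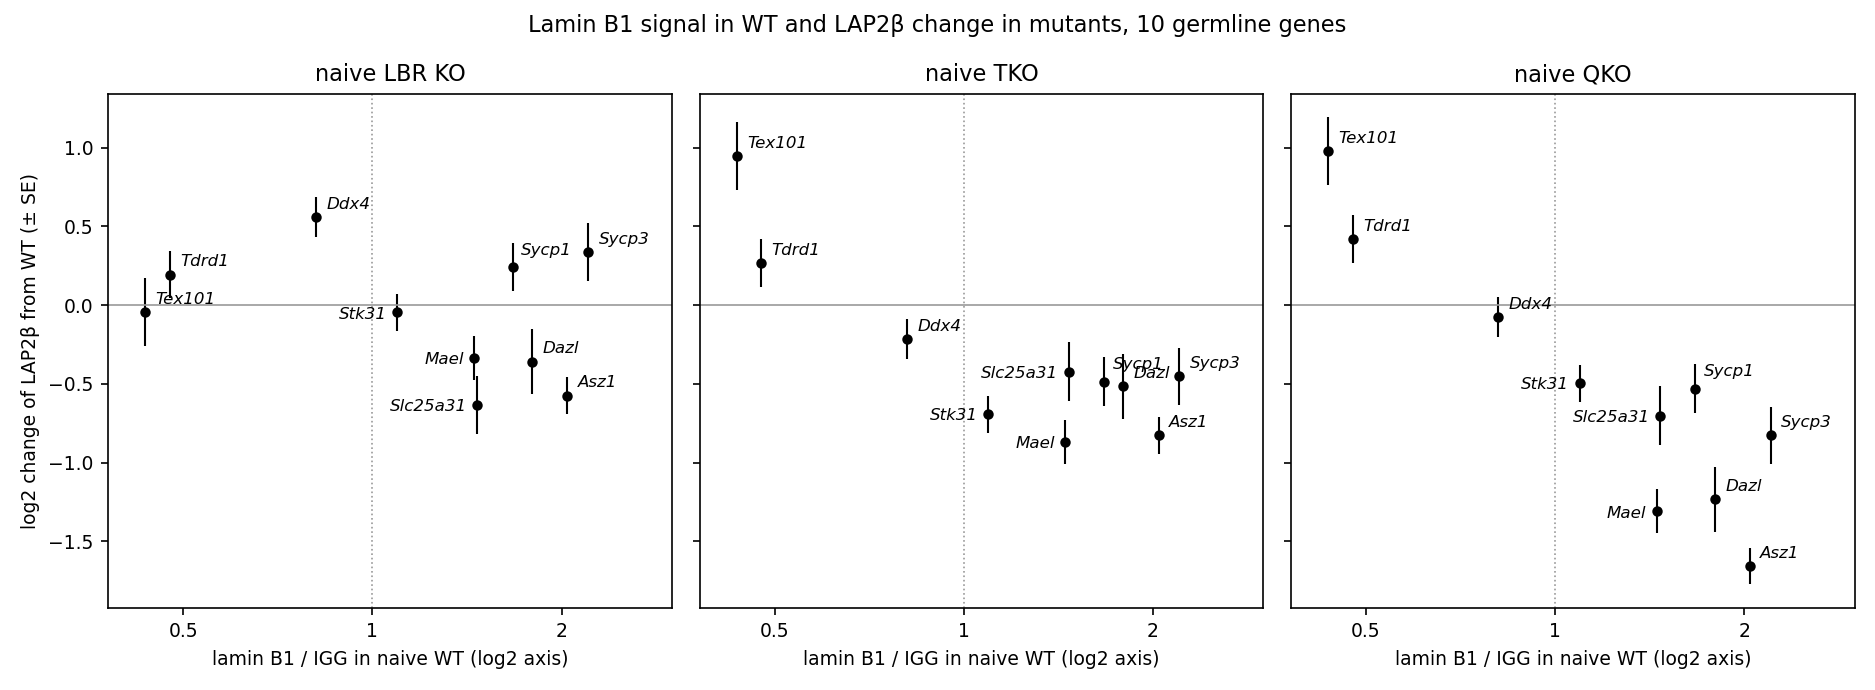
Log2 change of LAP2β signal from WT (y axis, ± SE from limma) against the ratio of relative lamin B1 to relative IGG signal in naive WT (x axis, log scale), 1 point per germline gene, in LBR KO, TKO and QKO. In QKO the points run from Tex101 (0.435, change 0.98) down to Asz1 (2.04, change −1.66), while in LBR KO Sycp3 (2.20) lies at 0.34.

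In TKO and QKO EpiLCs fewer germline genes were called than in naive cells on the relative scale, as was so of all genes, while with spike-in scaling QKO had 9 of 10 at both stages. In QKO EpiLCs 3 of 10 fell and 0 rose on the relative scale, where 19.1% of all tested genes fell and 16.9% rose, and in TKO 1 fell and 0 rose, where 10.8% fell and 7.51% rose. With the mean gene as the unit the splits were 1 falling and 2 rising in QKO, where 15.4% of all genes fell and 24.5% rose, and 1 and 1 in TKO, where 8.85% fell and 14.6% rose. With the spike-in 9 fell in QKO and 0 rose, where 55.7% fell and 0.117% rose, and 1 fell in TKO and 0 rose, where 9.6% fell and 0.101% rose. Of those calls, Asz1 in TKO was lost without TKO replicate 3 or WT replicate 1 (limma adjusted p = 0.0761 and 0.116), Sycp3 in QKO without WT replicate 1 or 3 (limma adjusted p = 0.0537 and 0.0519), and Tdrd1 in QKO without any 1 of the 6 libraries other than WT replicate 2 (limma adjusted p = 0.0585 to 0.325). Relative to the median gene Tdrd1 and Tex101 were not called in EpiLCs of any mutant, with changes of −0.22 to 0.45. With the mean gene as the unit Tdrd1 was called higher in TKO (0.46, limma adjusted p = 0.0213) and QKO (0.40, limma adjusted p = 0.0288), and Tex101 in QKO (0.49, limma adjusted p = 0.0277).

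Asz1 was the gene called in both. Its relative values were 12.2, 12.0 and 10.3 in WT EpiLCs, 6.54, 7.11 and 7.33 in TKO, and 6.24, 6.18 and 7.05 in QKO. Both mutants lay below WT, with changes of −0.70 ± 0.12 (limma adjusted p = 1.98e-05) and −0.81 ± 0.12 (limma adjusted p = 2.4e-07). Mael at 6.39, 6.01 and 6.46 in WT and 4.61, 4.78 and 4.95 in QKO (−0.39 ± 0.14, limma adjusted p = 0.0254) and Slc25a31 at 2.60, 3.73 and 2.71 in WT and 1.76, 2.10 and 2.21 in QKO (−0.54 ± 0.19, limma adjusted p = 0.0197) made up the rest. The call for Mael was lost without QKO replicate 1 or 2 or WT replicate 1 or 3 (limma adjusted p = 0.0618 to 0.0817), and that for Slc25a31 without QKO replicate 1 or WT replicate 2 (limma adjusted p = 0.105 and 0.151). Dazl was at −0.39 ± 0.21 in QKO and was not called (limma adjusted p = 0.142). Against the median gene of each chromosome Dazl was called (−0.56, limma adjusted p = 0.0407), and Mael (−0.29, limma adjusted p = 0.0947) and Slc25a31 (−0.40, limma adjusted p = 0.0815) were not.

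Several germline genes gained LAP2β signal in LBR KO EpiLCs. There 4 of 10 rose and 1 fell on the relative scale, where 13.3% of all tested genes rose and 10.3% fell, and the split was the same with the mean gene as the unit, where 12.1% rose and 12.3% fell. Measured against the median gene of each chromosome, 3 rose and 2 fell, where 12.3% rose and 10.3% fell. Sycp3 went from 2.00, 1.78 and 1.90 in WT to 3.86, 3.53 and 3.72 in LBR KO (0.93 ± 0.18, limma adjusted p = 7.89e-05). Sycp1 went from 4.13, 4.73 and 3.61 to 7.24, 8.42 and 6.45 (0.81 ± 0.15, limma adjusted p = 4.16e-05). The LBR KO libraries of both genes lay above every library of the other genotypes in EpiLCs.

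Ddx4, with 7.55, 8.87 and 5.80 in WT and 11.1, 10.3 and 9.96 in LBR KO, rose by 0.51 ± 0.13 (limma adjusted p = 0.00183, and 0.0585 without WT replicate 3). Stk31, with 11.7, 13.7 and 10.5 in WT and 16.8, 18.2 and 16.0 in LBR KO, rose by 0.51 ± 0.12 (limma adjusted p = 0.000698). The median of the gene changes on chromosome 6 was 0.31 in this comparison. Against the median gene of that chromosome in each library the change of Stk31 was 0.15 and was not called (limma adjusted p = 0.379). Asz1, at −0.01 and not called, was a called fall of −0.37 against that chromosome's median gene (limma adjusted p = 0.0108). Slc25a31 fell by 0.55 (limma adjusted p = 0.0257, and 0.0681 to 0.187 without LBR KO replicate 1 or 3 or WT replicate 2). With spike-in scaling Sycp1 and Sycp3 rose and 0 fell, where 5.65% of all genes rose and 3.58% fell. Both of those calls depended on single libraries: Sycp1 was lost without LBR KO replicate 1 or 2 or WT replicate 2 (limma adjusted p = 0.0567 to 0.104) and Sycp3 without LBR KO replicate 1 or 3 or WT replicate 2 (limma adjusted p = 0.0517 to 0.089).

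Whether a mutant's effect differed between the stages was tested as an interaction. For QKO the effect of 4 of 10 genes was higher (less negative) in EpiLCs and of 0 lower, where 26.2% of all genes were higher and 20.2% lower. These were Mael, Dazl, Asz1 and Sycp3. For LBR KO, Asz1 and Stk31 were higher, where 10.7% of all genes were higher and 9.35% lower, and for TKO Mael was, where 5.3% were higher and 4.13% lower. With the mean gene as the unit 3 were higher for QKO, where 18.9% of all genes were higher and 24.0% lower, and 0 for LBR KO (6.83% and 13.6%) and TKO (1.8% and 8.2%).

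Other germline genes moved both ways in naive QKO on the relative scale, where 31.7% of all tested genes rose and 44.2% fell, while with spike-in scaling, where 10.1% rose and 65.4% fell, most called ones fell. Of 18 further genes of the piRNA pathway list, which also holds the RNA-binding regulators Nanos2 and Nanos3 from outside that pathway, 6 rose and 8 fell, at a median log2 change of 0.04, and with spike-in scaling 1 rose and 12 fell, at a median of −1.12. Nanos3, a regulator of germ cell survival, rose by 2.35 ± 0.14 (limma adjusted p = 7.03e-21) and Exd1 by 1.54, while Henmt1, the methyltransferase of piRNA ends, fell by 0.69 and Tdrd5 by 0.66. Of 26 meiotic chromosome genes 13 rose and 9 fell, at a median of 0.18, and with spike-in scaling 3 rose and 16 fell, at a median of −0.97. Syce2, of the central element of the synaptonemal complex, rose by 2.43 ± 0.15 (limma adjusted p = 4.17e-21) and Msh5 by 2.12, while Spata22 fell by 1.40 and Sycp2, the partner of Sycp3 on the chromosome axes, fell by 1.27 ± 0.14 (limma adjusted p = 3.28e-11). The TKO line from which QKO came had trisomy 8 by the study's karyotyping, as did a part of the WT cells. The values of the gene lists were not centred per chromosome, and an effect of copy number was not tested.

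Most genes that encode the silencers of germline promoters rose in naive QKO on the relative scale but not with spike-in scaling. Of all tested genes 31.7% rose and 44.2% fell on the relative scale, and 10.1% rose and 65.4% fell with spike-in scaling. Of 18, 16 rose and 1 fell relative to the median gene, at a median of 1.49 against −0.62 for the germline genes, and with spike-in scaling 6 rose and 5 fell, at a median of 0.33 against −1.71. On the relative scale L3mbtl2, a subunit of the variant Polycomb complex, rose by 2.92 ± 0.15 (limma adjusted p = 9.19e-24) and Uhrf1, which guides maintenance DNA methylation, by 2.62, while Ehmt1, an H3K9me2 methyltransferase, fell by 0.23 ± 0.09 (limma adjusted p = 0.0196). Of 12 genes of naive pluripotency 11 rose and 0 fell, at a median of 1.10, led by Klf2 at 2.81 and Fgf4 at 2.11, and with spike-in scaling 4 rose and 2 fell, at a median of −0.05. Of 9 genes of the primed epiblast 6 rose, with Etv4 at 2.91 and Wnt8a at 2.08, and 2 fell, namely Fgf5 at −1.77 and Lef1 at −0.57. With spike-in scaling 2 rose and 3 fell, at a median of −0.14. These medians describe the lists, which were not tested against each other. The lists also differed in background. In naive WT the median IGG level per bin was 0.853 for the germline genes (0.859 without Sycp1), 1.14 for the repressors and 1.28 for naive pluripotency. It was 1.09 for the primed epiblast, 0.936 for the piRNA list and 0.86 for the meiotic list. IGG was not profiled in the mutants, and an effect of background on these medians was not tested.

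**Figure D4:**
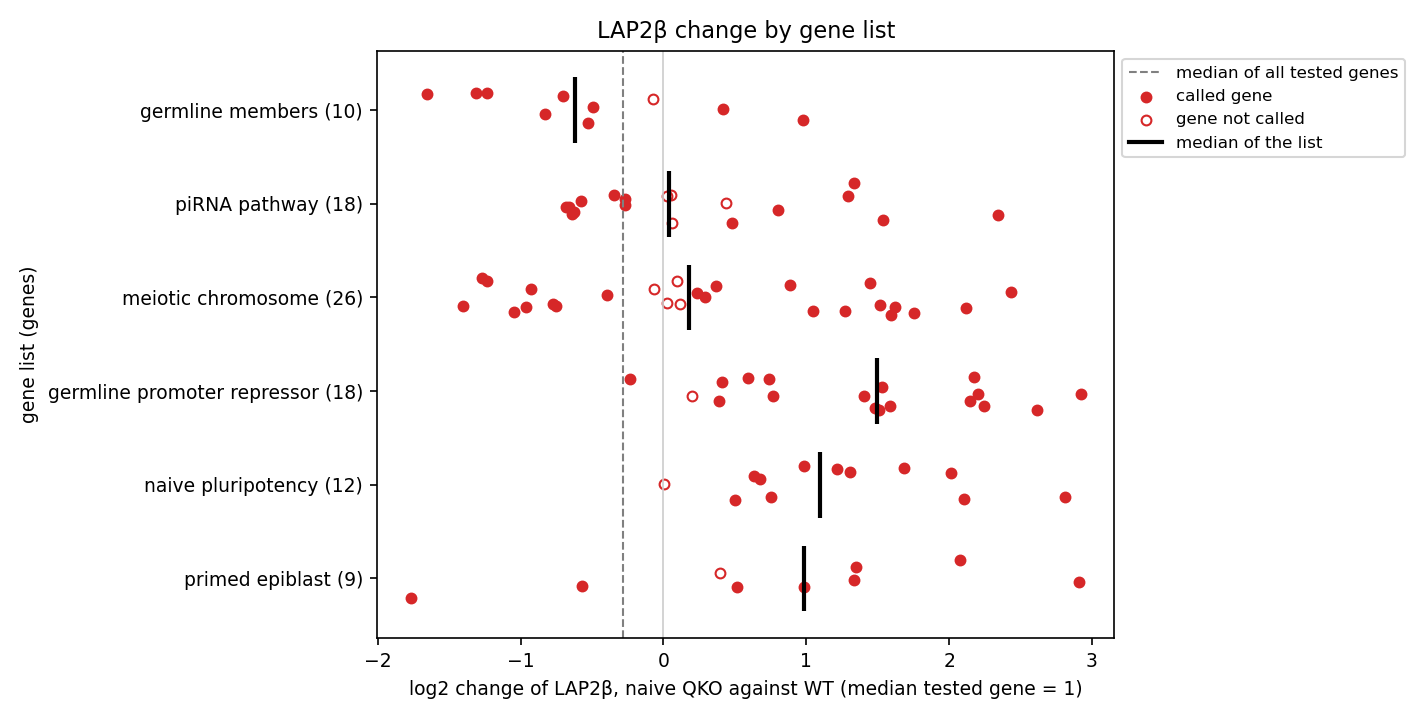
Log2 change of relative LAP2β signal in naive QKO against WT (x axis) for each gene of 6 lists (y axis), 1 point per gene, filled where called, with a black bar at the list's median and a dashed line at the median of all tested genes (−0.28). The germline genes (median −0.62) lie to the left of the promoter repressors (1.49) and of naive pluripotency (1.10). Their median IGG levels per bin in naive WT differed too (0.853, 1.14 and 1.28).

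Over the 24 LAP2β libraries the genes on other chromosomes whose relative signal ran closest to that of Dazl were Or2y1b (Pearson r = 0.88), Or52p2 (r = 0.86) and Asph (r = 0.86), out of 17946 named genes of at least 5 bins. Those closest to Ddx4 were Lrrc37 (r = 0.96), Fzd3 (r = 0.93) and Babam2 (r = 0.93), out of 18177. Libraries of 1 group share their genotype and stage, so the 24 points are not independent.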

How the data were processed

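CUT&RUN for LAP2β (24 libraries), lamin B1 (6) and IGG (6) was analysed, and 2 H3K9me3 libraries and the tables of transposable elements were not analysed here. Per the labels and the study's methods, the authors aligned reads to mm39 and to sacCer3 with Bowtie2 2.3.5.1 and SAMtools 1.10, left out blacklisted regions and deposited coverage signal scaled to the yeast spike-in (deepTools). How bins were joined to genes is not given in the sources used here, and values behaved as sums over the bins a gene touches. Values were whole multiples of 1 read in 100% of cases (tolerance 0.05 of a read), and reads were recovered from them. Coordinates came from GENCODE on GRCm39 for 78131 genes.

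The lowest 0.1 of genes were left out. limma 3.58.1 (R 4.3.3) was fitted to log2 values with group means over all libraries of an antibody, 8 groups for LAP2β and 2 each for the others, with Benjamini-Hochberg adjustment over 70381 genes. The relative scale used the library's median gene. The spike-in scale used the deposited values. Alternatives were pseudocounts of 1 and 0.01, no filter, a replicate block, edgeR 4.0.16 on recovered reads, division by the mean gene, centring per chromosome and leaving out each library. Centring took from each library's log2 values the median log2 value of the genes on that chromosome. It differs from subtracting the median of the gene changes on a chromosome. The limma and edgeR fits were tested on simulated LAP2β reads for naive QKO against WT on the relative scale only, with edgeR scaled there by total reads. The spike-in scale, the interaction, the centring per chromosome, the other antibodies and the recovery of reads were not simulated.

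The germline genes and the gene lists were chosen with earlier results of these data known. All 10 germline genes are named. Of the other lists, the 2 largest rises and falls among called genes in naive QKO are named, and the 3 genes most like Dazl and Ddx4. Of the 27 meiotic genes listed, 26 matched a symbol (Six6os1 did not).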

Additional observations from a re-analysis of the deposited data

Results flagged for a closer look

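Effects of a mutant that differed between naive cells and EpiLCs by the interaction term of limma (7 results) are listed here as the EpiLC effect minus the naive effect on relative LAP2β signal, with no explanation. For QKO these were 0.92 for Mael (adjusted p = 0.000126), 0.85 for Dazl (adjusted p = 0.0149), 0.85 for Asz1 (adjusted p = 3.28e-05) and 0.83 for Sycp3 (adjusted p = 0.00756). The QKO log2 changes in naive cells and EpiLCs were −1.31 and −0.39 for Mael, −1.23 and −0.39 for Dazl, −1.66 and −0.81 for Asz1, and −0.83 and −0.0024 for Sycp3. Without QKO naive replicate 3 the differences for Dazl and Sycp3 were 0.62 and 0.59 and were not called (adjusted p = 0.0853 and 0.0602).

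For LBR KO the effect on Stk31 differed by 0.56 (adjusted p = 0.013) and that on Asz1 by 0.56 (adjusted p = 0.0113). Stk31 changed by −0.05 in naive cells and by 0.51 in EpiLCs, and Asz1 by −0.58 and −0.01. Without WT EpiLC replicate 3 the difference for Stk31 was 0.47 (adjusted p = 0.0585). For TKO the effect on Mael differed by 0.65 (adjusted p = 0.029), from −0.87 in naive cells to −0.22 in EpiLCs, and the call was lost without TKO EpiLC replicate 2 or 3, TKO naive replicate 1, WT EpiLC replicate 2 or WT naive replicate 2 (adjusted p = 0.0529 to 0.113).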

How the results depend on the processing

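Numbers of germline genes called moved by more than 1.5 times under these settings. Centring on each chromosome gave 5 in naive QKO (9 otherwise), and turned Tdrd1 there to −0.27. A pseudocount of 1 median gave 3 in TKO EpiLCs. Division by the mean gene gave 2 in TKO EpiLCs, 5 for LAP2β between WT stages and 0 for the stage difference of the LBR KO and of the TKO effect. No filter gave 1 for LAP2β and 1 for lamin B1 between WT stages, and 0 for lamin B1 on the spike-in scale. The level per bin (median 0.774) was 0.596 per kb of gene length and 0.67 with the mean gene as the unit.

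Leaving out 1 library at a time gave these ranges of genes called on the relative scale: in naive cells 2 to 5 (LBR KO), 5 to 8 (TKO), 8 to 9 (QKO) and 2 to 4 (QKO against TKO), in EpiLCs 4 to 5, 1 to 3 and 1 to 3, between WT stages 1 to 3 (LAP2β) and 0 to 3 (lamin B1), and for the stage differences 1 to 3, 0 to 2 and 2 to 5. On the spike-in scale they were 1 to 1, 7 to 9 and 8 to 9 in naive cells, 0 to 2, 0 to 3 and 7 to 9 in EpiLCs, and 0 to 2 (LAP2β), 0 to 3 (lamin B1) and 0 to 3 (IGG) between WT stages. The level was 0.748 to 0.821, and 0.825 without Sycp1, a choice made after seeing the data. Over single genes, 77 calls were lost and 29 made when a library was left out, and 43 were lost (1 of them, Tdrd1 above, with its direction turned) and 24 made under the other settings. The cause was not tested.

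Replicate numbers did not pair the libraries. Same-numbered LAP2β libraries deviated together with correlations of −0.12 to 0.18 (84 pairs, 3 above 0.1). With a replicate block, the lamin B1 stage comparison on the spike-in scale had 0 calls (Tdrd1 and Tex101, adjusted p = 0.0643 and 0.0738), Sycp3 lost its relative lamin B1 call (adjusted p = 0.0726), Tdrd1 its spike-in call in QKO EpiLCs (adjusted p = 0.0626), Slc25a31 was called in naive TKO (adjusted p = 0.0437), naive QKO kept 9 and naive TKO had 8. Depth limits Tex101 most, at 40 reads in one library.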
